A study of Mus musculus with 6 samples.

Results

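Il17a and Il17f, the genes of the cytokines interleukin-17A and interleukin-17F, were followed through colonic CD4 T cells, as 2 of the 15473 genes listed in a table of UMI counts per cell. The genes were picked by symbol. The cells came from the colonic lamina propria of mice carrying the alleles Foxp3{delta}EGFPiCre/WT, and in addition R26lsl-tdTomato/wt, a genotype shared by both groups. The first group is the tdTomato+GFP+ gate and the second is the tdTomato-GFP- gate, each with 3 hashed biological replicates run together on 1 lane of a 10x Chromium. A difference between gates and a difference between lanes cannot be told apart here. GFP reports transcription of the inserted Foxp3 allele, and the tdTomato cassette at Rosa26 is switched on for good by the Cre made from that allele. The animals' ages are not given in the sources used here. Of 18874 cells assigned to a replicate, 1747, 4610 and 2408 were tdTomato+GFP+ cells of replicates 1 to 3, and 5159, 3114 and 1836 were tdTomato-GFP- cells of replicates 1 to 3.

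IL-17A and IL-17F are secreted as homodimers or as a heterodimer and signal through a receptor of IL-17RA and IL-17RC on epithelial and stromal cells, where they induce chemokines, antimicrobial peptides and tight junction proteins. In the gut lamina propria their main CD4 T cell source is the T helper 17 (Th17) cell, whose differentiation and upkeep depend on cytokines such as TGF-beta, IL-6, IL-1 and IL-23. STAT3, downstream of IL-6 and IL-23, is needed for transcription of both genes, and Foxp3 marks regulatory T cells, which as a rule make little of either cytokine.

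The genes are neighbours transcribed towards each other. Il17a lies on chromosome 1 from 20730905 to 20734496 on the plus strand and Il17f from 20777146 to 20784270 on the minus strand (GRCm38). Between them lie 42649 bases with 0 other annotated genes. Each has 3 exons, with spliced lengths of 1171 bases for Il17a and 1178 bases for Il17f, and the longest run of identical bases shared by their transcripts is 11 bases, far below a read length. Since the cells differ in these 2 transcripts together, the bases upstream of each start are shown (RefSeq, GRCm38.p6, 5′ to 3′ on the strand of the gene, ending at the base before the start), Il17a from chr1:20730685-20730904 on the plus strand and Il17f from chr1:20784271-20784490 on the minus strand. Capitals mark AGGTCA, a core site of nuclear receptors, ACCACA, the core bound by RUNX proteins, and TATAAA, the TATA box, each searched on both strands.
Il17a: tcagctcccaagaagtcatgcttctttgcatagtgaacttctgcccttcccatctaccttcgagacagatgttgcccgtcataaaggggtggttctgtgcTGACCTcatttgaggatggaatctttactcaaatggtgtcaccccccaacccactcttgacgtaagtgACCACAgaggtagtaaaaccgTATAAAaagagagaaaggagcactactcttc
Il17f: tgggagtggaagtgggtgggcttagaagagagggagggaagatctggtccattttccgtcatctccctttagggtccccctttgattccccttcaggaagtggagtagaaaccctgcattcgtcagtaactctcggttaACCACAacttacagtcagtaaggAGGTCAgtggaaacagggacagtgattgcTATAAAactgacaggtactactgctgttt
Both windows held all 3 motifs. In Il17a, AGGTCA was found on the minus strand (read as TGACCT) at 120 to 115 bases before the start, ACCACA at 52 to 47 and TATAAA at 31 to 26. In Il17f, ACCACA stood at 81 to 76, AGGTCA at 58 to 53 on the plus strand and TATAAA at 29 to 24. The letters of TTCNNNGAA, bound by STAT proteins, and TGANTCA, bound by AP-1, were not in these windows. Among 32851 RefSeq promoter windows of 220 bases, AGGTCA was present in 12.4%, ACCACA in 12.4%, TATAAA in 10.9%, TTCNNNGAA in 6.05% and TGANTCA in 5.96%.

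Median depth per cell was 3771, 3655 and 3501.5 UMIs in tdTomato+GFP+ replicates 1 to 3 and 3905, 3778.5 and 3847 UMIs in tdTomato-GFP- replicates, without hashtag counts. The lanes shared 174 cell barcodes. T cell identity was checked through Cd3 and receptors, since gamma delta T cells and innate lymphoid cells can also make IL-17. Of cells with at least 10 Il17a UMIs, 81.9%, 66.6% and 69.6% had a paired alpha beta receptor in tdTomato+GFP+ replicates, against 72.3%, 78.0% and 74.7% in tdTomato-GFP- replicates. A UMI of Trdc, the constant gene of the delta chain, was seen in 0%, 0.625% and 0.142% of these cells in tdTomato+GFP+ replicates, against 0%, 0% and 5.06% in tdTomato-GFP- replicates. The last value makes tdTomato-GFP- replicate 3 the hashed replicate with the most delta chain signal among Il17a-rich cells. A Cd3 UMI was present in at least 99.97% of Il17a-rich cells in each replicate.

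Over all cells, both transcripts were several-fold more abundant in the tdTomato+GFP+ gate, and a larger share of its cells carried them. Il17a stood at 12709.8, 10748 and 9113 CPM (UMIs of the gene per 1000000 UMIs of the summed cells) in tdTomato+GFP+ replicates, against 1825, 1453 and 1901 CPM in tdTomato-GFP- replicates. Il17f stood at 1840.3, 1238 and 1188 CPM in tdTomato+GFP+ replicates, against 234, 206 and 292 CPM in tdTomato-GFP- replicates. The groups did not overlap for either gene, and replicate 1 was the highest of the tdTomato+GFP+ gate for both. In the edgeR fit over all genes the log2 fold change was 2.64 for Il17a (SE 0.17, adjusted p = 0.000498) and 2.53 for Il17f (SE 0.25, adjusted p = 0.00241), where 26.4% of all tested genes passed and 13% passed as higher. When both gates of a number were cut to the same cell number in each cluster, the values were 0.29 (adjusted p = 0.891) and 0.50 (adjusted p = 0.788), and neither passed.

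Both the share of cells with a transcript and the UMIs per carrying cell were higher in the tdTomato+GFP+ gate. An Il17a UMI was found in 89.3%, 81.4% and 75.1% of tdTomato+GFP+ cells, against 24.0%, 19.7% and 21.6% of tdTomato-GFP- cells, and after thinning each cell to 2000 UMIs in 88.0%, 79.5% and 72.1%, against 22.1%, 17.6% and 20.6%. An Il17f UMI was found in 62.2%, 46.3% and 42.3% of tdTomato+GFP+ cells, against 10.8%, 9.31% and 11.5% of tdTomato-GFP- cells. Cells with an Il17a UMI held on average 60.5, 57.7 and 50.2 of them in tdTomato+GFP+ replicates, against 34.3, 32.3 and 37.9 in tdTomato-GFP- replicates. For Il17f the cells with a UMI held 12.6, 11.7 and 11.6 UMIs in tdTomato+GFP+ replicates, against 9.77, 9.68 and 10.9 in tdTomato-GFP- replicates. The groups were separate in all of these values (two-sided exact permutation, p = 0.1 each, which is the least that 3 against 3 can give, adjusted p = 0.18 over 18 values). Il17a was also spread over more cells in the tdTomato+GFP+ gate, whose richest 10% of cells held 33.0%, 38.5% and 40.2% of Il17a UMIs, against 87.4%, 93.3% and 89.0% in the tdTomato-GFP- gate.

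Most of this transcript came from clusters 1, 2, 3, 12 and 13 of the authors, called Th17-like here. Without Il17a and Il17f, cluster 1 raised 5, cluster 2 raised 6, cluster 3 raised 4, cluster 12 raised 6 and cluster 13 raised 5 of 8 Th17 markers, among them Ccl20, a chemokine gene, in each. These clusters supplied 93.2%, 92.8% and 92.7% of Il17a UMIs in tdTomato+GFP+ replicates, against 78.5%, 80.1% and 88.0% in tdTomato-GFP- replicates. For Il17f they supplied 92.4%, 90.8% and 88.8%, against 73.1%, 73.4% and 78.8%. Both gates thus drew most of each transcript from these clusters, the tdTomato-GFP- gate less so in all replicates. Since the clustering used these genes too, the levels by cluster are given as a description.

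**Figure D1:**
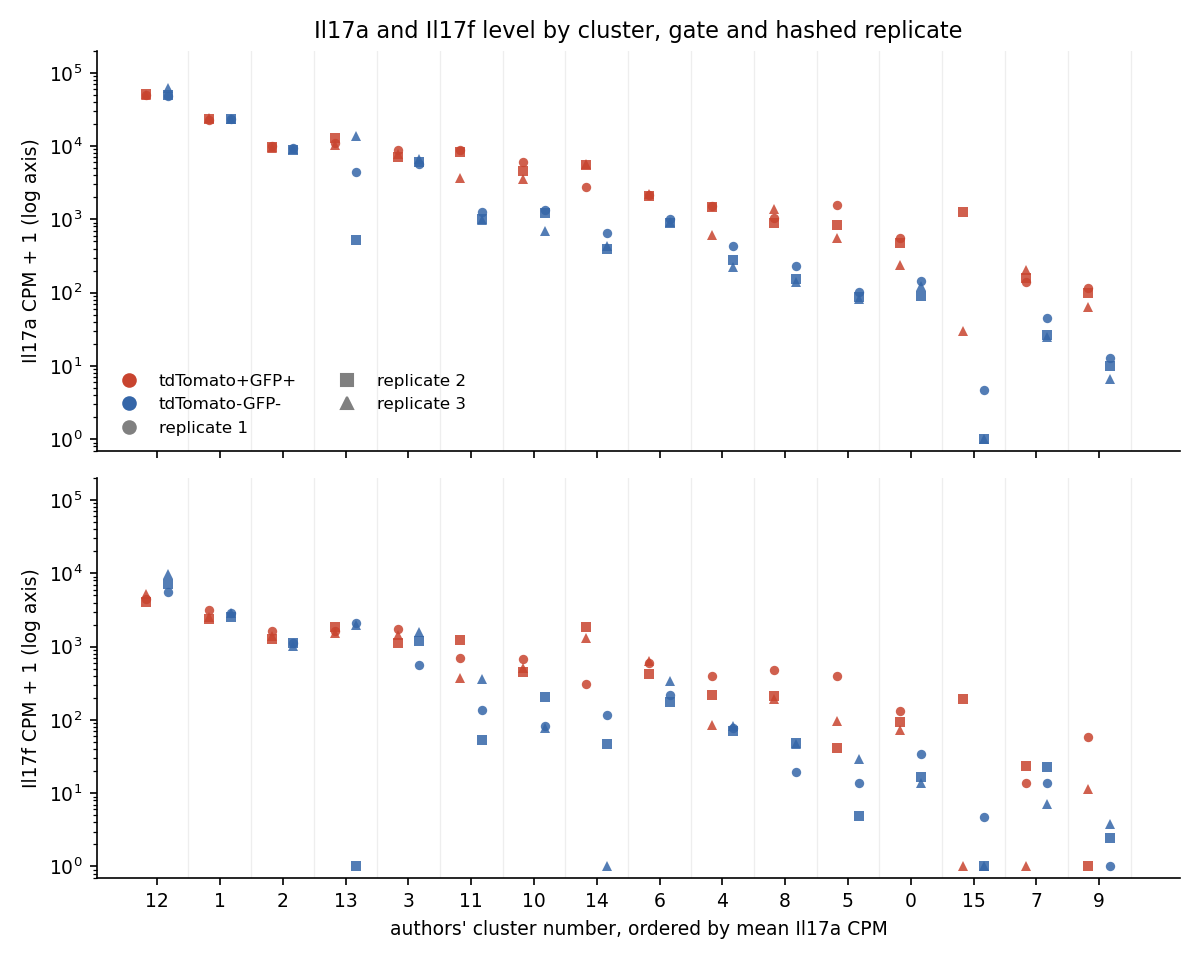
Il17a (upper panel) and Il17f (lower panel) in CPM plus 1 on a log axis, for each cluster of the authors, ordered by mean Il17a CPM. Each point is a hashed replicate, with tdTomato+GFP+ on the left and tdTomato-GFP- on the right of a cluster. The gates lie close together in clusters 12, 1 and 2 and stand apart in most clusters with a lower level.

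Cluster 12 had the highest level of both genes. Its Il17a stood at 49037, 50606 and 49276 CPM in tdTomato+GFP+ replicates, against 48665, 50447 and 61298 CPM in tdTomato-GFP- replicates, the tdTomato-GFP- values resting on 15, 6 and 4 cells. Its Il17f stood at 4518, 4106 and 5166 CPM in tdTomato+GFP+ replicates, against 5570.1, 7228 and 9835 CPM in tdTomato-GFP- replicates. The Il17a values of the gates overlapped, while all 3 Il17f values were lower in the tdTomato+GFP+ gate. Cluster 1 came next for Il17a, with 22710.0, 23103 and 23794 CPM in tdTomato+GFP+ replicates, against 23115, 23612 and 23784 CPM in tdTomato-GFP- replicates. Il17a was detected in 100% of the cells of clusters 1 and 12 in all 6 replicates. Cluster 13 followed with 11011, 12856 and 10321 CPM in tdTomato+GFP+ replicates, and its tdTomato-GFP- values rest on 4, 2 and 2 cells. Cluster 2 had 10116, 9831 and 9419 CPM in tdTomato+GFP+ replicates, against 9268, 8972 and 9032 CPM, and its replicates did not overlap although they lay close together. Cluster 3 had 8739, 7174 and 7756 CPM in tdTomato+GFP+ replicates, against 5719, 6062 and 6581 CPM in tdTomato-GFP- replicates.

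Within the Th17-like clusters as a class, Il17a was modestly higher in tdTomato+GFP+ cells, while the difference in Il17f did not pass. Il17a stood at 17476, 16120 and 15809 CPM in tdTomato+GFP+ replicates, against 12389, 12559 and 13134 CPM in tdTomato-GFP- replicates. The groups did not overlap, and the log2 fold change was 0.34 (SE 0.04, adjusted p = 4.71e-05). Il17f stood at 2510.4, 1815 and 1974 CPM in tdTomato+GFP+ replicates, against 1477, 1633 and 1809 CPM in tdTomato-GFP- replicates. Its groups were separate by a narrow margin, and the fold change of 0.32 was as large as that of Il17a but less certain (SE 0.16, adjusted p = 0.312), and it ranged from 0.17 without tdTomato+GFP+ replicate 1 to 0.42 without tdTomato+GFP+ replicate 2. Of all tested genes 11.2% passed here, 4.75% as higher, and with the replicate number as a block 1740 genes passed in place of 1129 while Il17f still did not (0.31, adjusted p = 0.521). Il17a was detected in 98.8%, 97.8% and 97.6% of tdTomato+GFP+ cells of this class, against 88.5%, 91.2% and 94.3% of tdTomato-GFP- cells (exact p = 0.1, adjusted p = 0.18). UMIs per carrying cell overlapped between the gates here. For Il17a they were 69.7, 68.9 and 61.4 in tdTomato+GFP+ replicates, against 62.8, 59.1 and 61.4 (exact permutation p = 0.2, adjusted p = 0.327). For Il17f they were 13.6, 12.7 and 12.7, against 14.5, 12.4 and 12.9 (exact permutation p = 0.8, adjusted p = 0.847). The class also had more of its cells in cluster 1 in the tdTomato+GFP+ gate, 531, 1084 and 481 of 1276, 2985 and 1404 cells, against 136, 74 and 63 of 600, 294 and 229. Summed CPM of 6 Th1 markers moved the other way in the class, at 184, 286 and 383 in tdTomato+GFP+ replicates, against 1225, 1454 and 1259 in tdTomato-GFP- replicates. Summed CPM of 8 Treg markers ranged from 3789 to 4315 in tdTomato+GFP+ replicates and from 2803 to 3353 in tdTomato-GFP- replicates, and the part of these marker genes in the Il17a result was not tested. Summed CPM of 8 gamma delta T cell markers ranged from 325 to 392 in tdTomato+GFP+ replicates and from 219 to 325 in tdTomato-GFP- replicates. Of these markers only Tcrg-C1 was raised in the Th17-like clusters, so the sum does not measure the share of gamma delta T cells. Without tdTomato-GFP- replicate 3, which had the most delta chain signal, the Il17a fold change was 0.36 (adjusted p = 0.000352).

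In single Th17-like clusters the gate effect on Il17a was near 0 in clusters 1 and 2, while clusters 12 and 13 had too few tdTomato-GFP- cells for a fit. In cluster 1 the log2 fold change was -0.07 (SE 0.04, adjusted p = 0.290, where 6.08% of genes passed) and in cluster 2 it was 0.08 (SE 0.05, adjusted p = 0.399). In cluster 3 Il17a rose by 0.32 (SE 0.07, adjusted p = 0.0133, where 5.11% of genes passed), a call lost without tdTomato-GFP- replicate 1 (adjusted p = 0.111) or 2 (0.0994). Il17f rose in cluster 2, with 1653, 1285 and 1414 CPM in tdTomato+GFP+ replicates, against 1119, 1131 and 1019 CPM in tdTomato-GFP- replicates. The log2 fold change there was 0.38 (SE 0.08, adjusted p = 0.00607, where 5.04% of genes passed), and without tdTomato-GFP- replicate 3 the adjusted p was 0.0501. In clusters 1 and 3 Il17f gave -0.09 (adjusted p = 0.789) and 0.36 (SE 0.45, adjusted p = 0.798). With a hashed replicate left out, the value in cluster 1 ranged from -0.22 without tdTomato+GFP+ replicate 1 to -0.0041 without tdTomato+GFP+ replicate 2. The value in cluster 3 ranged from 0.0043 without tdTomato-GFP- replicate 1 to 0.69 without tdTomato-GFP- replicate 3.

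Outside the Th17-like clusters the levels were mostly lower and the difference between gates was larger. Cluster 11 was an exception in the tdTomato+GFP+ gate, with Il17a at 8871, 8354 and 3673 CPM, against 8739, 7174 and 7756 CPM in cluster 3. Cluster 6, which raised 5 of 6 Th1 markers and 4 of 8 Th17 markers, had 2147, 2061 and 2238 CPM of Il17a in tdTomato+GFP+ replicates, against 1019, 902 and 906 CPM in tdTomato-GFP- replicates. Its Il17a was higher in every tdTomato+GFP+ replicate, with a log2 fold change of 1.17 (SE 0.06, adjusted p = 5.26e-14, where 5.2% of genes passed). Il17f in this cluster stood at 592, 424 and 643 CPM, against 217, 177 and 344 CPM, and its fold change was close to that of Il17a but did not pass (SE 0.32, adjusted p = 0.179). With the replicate number as a block the Il17f difference in cluster 6 passed (adjusted p = 4.17e-27), as it did without tdTomato-GFP- replicate 3 (1.43, adjusted p = 0.0366).

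Cluster 5, which raised 8 of 8 Treg markers including Foxp3, had 1547, 824 and 549 CPM of Il17a in tdTomato+GFP+ replicates, against 101, 85.5 and 81.4 CPM in tdTomato-GFP- replicates. Il17a was detected in 58.3%, 41.3% and 36.2% of its tdTomato+GFP+ cells, against 8.81%, 5.37% and 6.55% of its tdTomato-GFP- cells. The log2 fold change of 3.40 was the largest for Il17a among the 11 clusters tested (SE 0.37, adjusted p = 0.00773, where 3.71% of genes passed), and the tdTomato+GFP+ sums hold only 24, 80 and 58 cells. Il17f in cluster 5 was detected in 25.0%, 5.00% and 12.1% of tdTomato+GFP+ cells, against 1.15%, 0.413% and 1.75% of tdTomato-GFP- cells. Its fold change of 3.41 had an SE of 1.16 and did not pass (adjusted p = 0.260).

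The clusters with Th2 or Tfh markers held less Il17a than any Th17-like cluster in the tdTomato+GFP+ gate. Cluster 0, with 6 of 6 Th2 markers raised, had 549, 470.0 and 239 CPM of Il17a in tdTomato+GFP+ replicates, against 142, 89.5 and 121 CPM in tdTomato-GFP- replicates. The groups did not overlap, but the fold change of 1.81 did not pass (SE 0.38, adjusted p = 0.138), except without tdTomato+GFP+ replicate 3, at 2.10 (adjusted p = 0.00102), where 2.55% of genes passed with all replicates. For Il17f cluster 0 gave 2.07 (adjusted p = 0.0819), and with the replicate number as a block it passed at 2.34 (adjusted p = 8.44e-07), as it did without tdTomato-GFP- replicate 1 (2.67, adjusted p = 9.48e-05). Cluster 8, with 5 of 6 Th2 markers and 4 of 7 stromal and endothelial genes raised, had 1055, 881 and 1368 CPM of Il17a, against 226, 154 and 138 CPM. Il17a rose there by 2.72 (SE 0.21, adjusted p = 4.18e-05, where 0.73% of genes passed), and Il17f gave 2.68 (adjusted p = 0.0884), passing without replicate 1 of either gate. Cluster 7, with 6 of 6 Tfh markers raised, had 141, 158 and 199.7 CPM, against 44.5, 25.6 and 24.1 CPM, and rose by 2.28 (SE 0.28, adjusted p = 3.58e-05, where 0.513% of genes passed). Il17f was too low to test in cluster 7.

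Clusters 4, 10 and 11 were the remaining clusters tested outside the class. Cluster 11, which raised 1 of 8 Th17 markers, had 8871, 8354 and 3673 CPM of Il17a in tdTomato+GFP+ replicates, against 1272, 1007 and 968 CPM in tdTomato-GFP- replicates. It rose by 2.63 (SE 0.41, adjusted p = 0.0445, where 4% of genes passed). This call was lost in 5 of 6 settings with a hashed replicate left out, all but that without tdTomato+GFP+ replicate 3 (adjusted p up to 0.207). Cluster 10, with 6 of 6 cell cycle markers raised, had 6058, 4621 and 3585 CPM, against 1325, 1238 and 695 CPM. Its fold change of 2.13 did not pass (adjusted p = 0.0637, where 3.88% of genes passed) but did with the replicate number as a block, at 2.16 (adjusted p = 4.14e-10). Cluster 4, where 1.56% of genes passed, gave 1.92 for Il17a (SE 0.49, adjusted p = 0.248) and 1.56 for Il17f (SE 0.59, adjusted p = 0.445, passing at 1.97 without tdTomato+GFP+ replicate 3, adjusted p = 0.0129). In clusters 10 and 11 Il17f gave 2.18 (adjusted p = 0.123, passing at 2.78 without tdTomato-GFP- replicate 2, adjusted p = 4.99e-08) and 2.33 (adjusted p = 0.307).

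**Figure D2:**
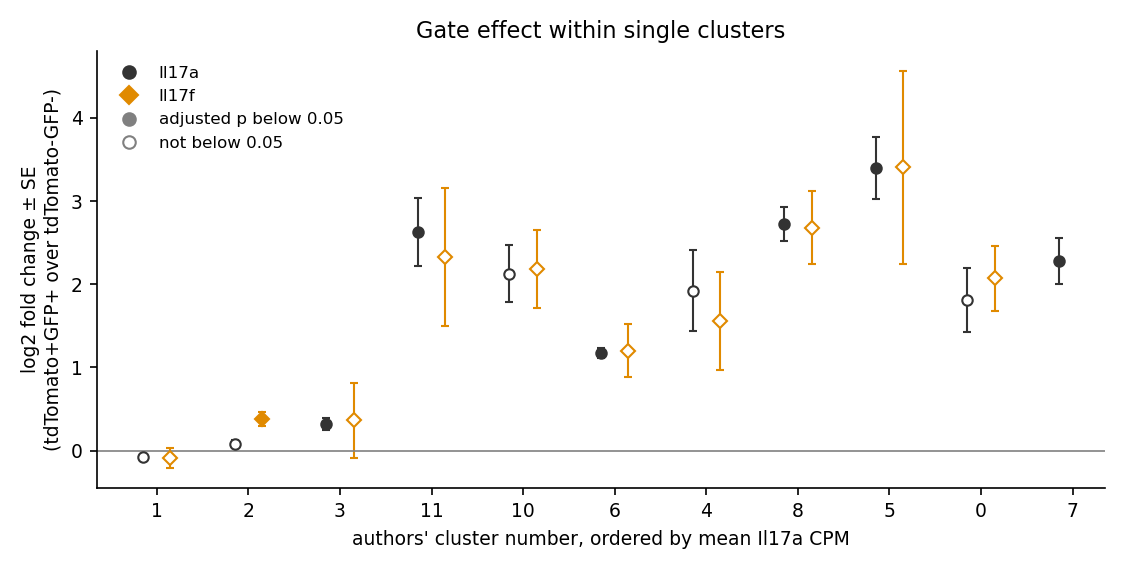
Log2 fold change between the gates (tdTomato+GFP+ on top) with its SE, for Il17a (circles) and Il17f (diamonds), in each cluster with at least 20 cells per replicate, ordered by mean Il17a CPM. Filled marks passed at an adjusted p below 0.05. Il17a lies near 0 in clusters 1 and 2, Il17f in cluster 2 is at 0.38, and clusters outside the Th17-like class lie between 1.17 and 3.41.

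Taken as 1 class, the clusters outside the Th17-like ones differed in both genes, but the mix of clusters also differed between the gates. Cluster 5 held 24, 80 and 58 of 449, 1575 and 987 tdTomato+GFP+ cells of the class. It held 783, 484 and 229 of 4500, 2773 and 1586 tdTomato-GFP- cells. The part of this mix in the values of the class was not tested. The log2 fold change was 2.62 for Il17a (SE 0.37, adjusted p = 0.0242) and 2.42 for Il17f (SE 0.22, adjusted p = 0.00392), where 9.33% of genes passed, 3.81% as higher and 5.52% as lower. With the replicate number as a block both still passed, and 2172 genes passed in place of 1040. The Il17f call held without each hashed replicate in turn. The Il17a call was lost without tdTomato+GFP+ replicate 2 (adjusted p = 0.0730), without tdTomato-GFP- replicate 1 (0.0533), 2 (0.111) or 3 (0.0715), and with 1 cell per clonotype (2.55, adjusted p = 0.0549). The gate effect in the Th17-like class minus that outside it was -2.24 for Il17a (log2, SE 0.35, adjusted p = 0.0388) and -2.06 for Il17f (SE 0.10, adjusted p = 1.71e-08), so it was larger outside, where 7% of genes passed, 4.15% as lower. With a hashed replicate left out, the Il17a difference ranged from -2.48 to -2.03. Its call was lost in each of these 6 settings (adjusted p from 0.0643 to 0.141), while that of Il17f held in each. Since the clustering used both genes, the classes were set partly by the levels compared, and the difference is a description.

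Free RNA in a lane can place UMIs in cells that do not express a gene, and the tdTomato+GFP+ lane held more Il17a RNA. The naive-like cluster 9, with 6 of 6 naive and central memory markers raised, served as the cell type that should lack the gene. In cluster 9 an Il17a UMI was found in 12 of 53 tdTomato+GFP+ cells, 22.6% (95% exact interval 12.3 to 36.2), against 16 of 703 tdTomato-GFP- cells, 2.28% (1.31 to 3.67), at median depths of 3301 and 3552 UMIs. In the clusters outside the Th17-like class other than cluster 9, with cluster 7 included, the share was 50.9% of 2958 tdTomato+GFP+ cells. It was 14.5% of 8156 tdTomato-GFP- cells, and median depths were 3974 and 3872 UMIs in the same order of gates. The level there was 1898 CPM, against 81.2 CPM in cluster 9, in the tdTomato+GFP+ gate, and 389 CPM, against 9.32 CPM, in the tdTomato-GFP- gate. Whether the UMIs in cluster 9 came from free RNA was not tested, and shares of cells with at least 1 UMI outside the Th17-like class are read against them.

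A higher bar gave the same order. After thinning to 2000 UMIs, at least 5 Il17a UMIs were present in 0 of 51 tdTomato+GFP+ and 1 of 661 tdTomato-GFP- cells of cluster 9. In the clusters outside the Th17-like class other than cluster 9, with cluster 7 included, at least 5 were present in 31.4%, 22.3% and 17.05% of tdTomato+GFP+ cells. The shares were 5.75%, 4.24% and 3.69% of tdTomato-GFP- cells. The replicates did not overlap (two-sided exact permutation p = 0.1). For Il17f at least 5 UMIs were present in 6.62%, 3.82% and 3.86% of tdTomato+GFP+ cells, against 0.760%, 0.420% and 0.786% of tdTomato-GFP- cells (exact p = 0.1). Cluster 7, the Tfh-like cluster, stayed near cluster 9 by this measure, with 2 of 91 tdTomato+GFP+ and 2 of 781 tdTomato-GFP- cells. Its share with any Il17a UMI was 22.8% of 101 tdTomato+GFP+ cells, near that of cluster 9, and 4.29% of 839 tdTomato-GFP- cells, above it. Its Il17a level, 141, 158 and 199.7 CPM in tdTomato+GFP+ replicates, lay above the 113, 97.3 and 63.0 CPM of cluster 9. In tdTomato-GFP- replicates it was 44.5, 25.6 and 24.1 CPM, against 11.9, 8.86 and 5.55 CPM. Whether the rise in cluster 7 is expression or free RNA was not tested.

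Il17f was the rarer transcript and was nearly always found with Il17a. The spliced lengths are close, but how well each transcript is captured was not measured, so the ratio of the genes is one of UMIs and not of molecules in the cell. There were 14.5, 11.5 and 13.04 Il17f UMIs per 100 Il17a UMIs in tdTomato+GFP+ replicates, against 12.8, 14.2 and 15.4 in tdTomato-GFP- replicates (exact p = 0.5, adjusted p = 0.563), so the groups overlapped. Within the Th17-like class the ratio was 14.4, 11.3 and 12.5 in tdTomato+GFP+ replicates, against 11.9, 13.01 and 13.8 in tdTomato-GFP- replicates (exact p = 0.9, adjusted p = 0.9). Among cells with an Il17f UMI, 97.9%, 97.4% and 97.0% also had an Il17a UMI in the tdTomato+GFP+ gate, against 87.1%, 88.6% and 92.5% in the tdTomato-GFP- gate. Cells with both numbered 1063, 2080 and 988 in tdTomato+GFP+ replicates, against 1032, 1962 and 922 expected if detection were independent within clusters. In tdTomato-GFP- replicates they numbered 485, 257 and 196, against 323, 185 and 151 expected. Cells with Il17f alone numbered 23, 55 and 31 in tdTomato+GFP+ replicates and 72, 33 and 16 in tdTomato-GFP- replicates. The number with both cannot exceed that of cells with Il17f, so in the tdTomato+GFP+ gate it had little room above expectation. Among cells with an Il17a UMI, 68.1%, 55.4% and 54.6% also had Il17f in the tdTomato+GFP+ gate, against 39.1%, 42.0% and 49.4% in the tdTomato-GFP- gate. The odds ratio of detection together was 14.96, 17.98 and 21.7 in tdTomato+GFP+ replicates and 34.2, 53.4 and 84.1 in tdTomato-GFP- replicates (exact p = 0.1, adjusted p = 0.18), lower in all 3 tdTomato+GFP+ replicates.

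The ratio of the transcripts differed from cluster to cluster. Pooled over replicates, Il17f per 100 Il17a UMIs was 8.90 in tdTomato+GFP+ cells and 12.9 in tdTomato-GFP- cells of cluster 12, 11.4 and 11.96 in cluster 1, 14.1 and 12.03 in cluster 2, and 17.4 and 15.3 in cluster 3, in the same order of gates. It reached 24.2 in tdTomato+GFP+ cells and 23.01 in tdTomato-GFP- cells of cluster 6, and 22.4 and 19.3 in cluster 0. Other clusters did not follow the order of their Il17a level, with ratios in tdTomato+GFP+ cells of 14.6 in cluster 13, 11.2 in cluster 10 and 12.95 in cluster 11.

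Within the Th17-like class Il17f was detected most often in the cells with the most Il17a, in both gates. At a depth of 2000 UMIs, cells without an Il17a UMI had an Il17f UMI in 24.0% ± 11.9 of tdTomato+GFP+ cells and 5.95% ± 3.91 of tdTomato-GFP- cells (SD, n = 3 replicates). With 5 to 9 Il17a UMIs the shares were 53.4% ± 5.33 and 49.2% ± 15.2, and with 40 or more they were 68.7% ± 6.04 and 68.2% ± 11.6, in the same order of gates. In tdTomato+GFP+ and tdTomato-GFP- cells the mean number of Il17f UMIs per cell was 2.82 and 2.88 in the bin of 5 to 9 and 6.0 and 6.18 in the bin of 40 or more. Il17f differed less between these bins than Il17a, by which the bins were set. Per 100 Il17a UMIs it was 39.3 and 39.9 in the lower bin and 9.71 and 10.3 in the upper. The binning itself fixes part of that fall, so it does not show how Il17f scales with Il17a. The shares overlapped between gates in every bin except that without Il17a and that of 10 to 19 UMIs, where they were 54.2% ± 6.48 in tdTomato+GFP+ cells and 40.2% ± 3.01 in tdTomato-GFP- cells. Across single cells of a replicate the Spearman correlation was between 0.21 and 0.25 in the tdTomato+GFP+ gate and between 0.35 and 0.37 in the tdTomato-GFP- gate. Inside cluster 1, where Il17a had a median of 44 to 48 UMIs, it lay between -0.11 and 0.02, while in cluster 3 it lay between 0.13 and 0.23 in the tdTomato+GFP+ gate and between 0.25 and 0.42 in the tdTomato-GFP- gate. In cluster 2 it lay between 0.04 and 0.15 and between 0.16 and 0.17, in the same order of gates.

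**Figure D3:**
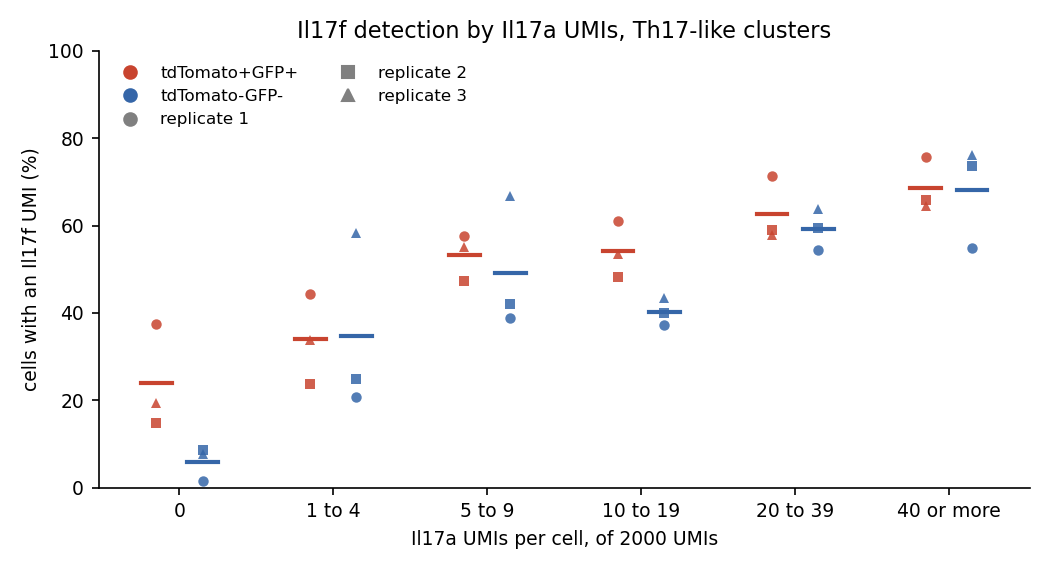
Share of cells with an Il17f UMI by the number of Il17a UMIs per cell, in Th17-like clusters after thinning each cell to 2000 UMIs. Points are hashed replicates, bars are means of 3 replicates, and tdTomato+GFP+ stands left of tdTomato-GFP-. The means climb to 68.7% in tdTomato+GFP+ cells and 68.2% in tdTomato-GFP- cells.

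Th17-like cells with and without an Il17a UMI were then compared within each replicate. At 2000 UMIs per cell, 16, 67 and 36 tdTomato+GFP+ cells and 68, 23 and 13 tdTomato-GFP- cells lacked it. Il17f stood at 2627, 1831 and 2027 CPM in the Il17a-positive and at 656, 142 and 194 CPM in the Il17a-negative tdTomato+GFP+ cells. In the tdTomato-GFP- gate it stood at 1627, 1708 and 1862 CPM in the Il17a-positive and at 162, 196 and 76.9 CPM in the Il17a-negative cells. Il17f was higher in the Il17a-positive cells of all 6 replicates (exact sign-flip permutation, two-sided p = 0.03125, the least that 6 pairs can give). The edgeR log2 fold change was 3.29 (SE 0.13, adjusted p = 3.26e-141, where 2.03% of genes passed, 1.32% as higher and 0.705% as lower). With equal numbers of positive and negative cells per cluster it was 2.81 (adjusted p = 0.0861).

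Other genes separated these cells too. Higher in Il17a-positive cells were Il1r2, a decoy receptor of IL-1 (log2 fold change 3.03), Ccr6, a chemokine receptor of Th17 cells (2.20), Il23r, the IL-23 receptor subunit (1.54), Ccr4, a chemokine receptor (1.48), and Fosl2, an AP-1 protein (1.42). Il22, the gene of a cytokine that acts on epithelium, had 2159 UMIs in 6262 Il17a-positive and 1 UMI in 223 Il17a-negative cells, a ratio of 76.9 per UMI sequenced with an exact 95% counting interval of 13.8 to 3038. Ermn (2.48), Dnajb9, a chaperone of the endoplasmic reticulum (2.26), and Rbm24, an RNA-binding protein (1.97), were the remaining genes of the 10 largest rises. Lower in Il17a-positive cells were the Th1 regulator Tbx21 (-1.57), the IL-12 receptor subunit Il12rb2 (-1.55), Bcl2, a survival factor (-1.52), the cytotoxic granule gene Nkg7 (-1.25) and Foxp3 (-0.94). Tmem140 (-1.60), Hip1 (-1.29), 9930111J21Rik2 (-0.98), Ms4a4b (-0.90) and Gimap7 (-0.84) complete the 10 largest falls. Of 14 tested Th17 transcription factors 8 were higher and 0 lower, among them Batf (0.60), Irf4 (0.89) and Hif1a (0.69). Of 13 tested genes listed here as restraining Il17a 0 were higher and 3 lower, Tbx21, Foxp3 and Klf2. With equal numbers per cluster 14 genes passed in all, against 118 without that restriction.

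What else an Il17a and Il17f positive Th17-like cell carried differed between the gates. At 2000 UMIs, Il22 was detected in 1.55% to 3.24% of such tdTomato+GFP+ cells and in 27.3% to 33.3% of such tdTomato-GFP- cells. Ifng, the gene of interferon gamma, was detected in 7.5% to 11.8% of the tdTomato+GFP+ cells, against 44.8% to 50.4% of the tdTomato-GFP- cells. Ccl20 went the other way, in 71.3% ± 3.25 of the tdTomato+GFP+ and 20.2% ± 4.48 of the tdTomato-GFP- cells, as did Foxp3, in 23.2% ± 1.97 and 3.23% ± 1.91, and Il10, in 15.4% ± 0.375 and 3.15% ± 1.01 (SD, n = 3 replicates each). Within a gate, Il22 was more frequent in cells with both transcripts than in cells with Il17a alone, at 30.1% ± 3.02 and 12.2% ± 1.43 in the tdTomato-GFP- gate and 2.18% ± 0.925 and 0.980% ± 0.222 in the tdTomato+GFP+ gate. Tbx21 was less frequent with both transcripts, at 2.69% ± 0.241 and 6.83% ± 0.405 in the tdTomato+GFP+ gate and 7.49% ± 1.14 and 11.2% ± 2.76 in the tdTomato-GFP- gate. These shares are descriptions with no test of their own.

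Genes of the IL-17 pathway were counted by role in the gate fit of the Th17-like class, against 4.75% of all tested genes higher and 6.45% lower. The roles are those of lists drawn up here, and whether a listed gene raises or restrains Il17a in these cells was not tested. Of 12 tested receptors of upstream cytokines 2 rose in tdTomato+GFP+ cells, Il6ra (1.44, adjusted p = 0.0269), the IL-6 receptor, and Il2ra (1.11, adjusted p = 1.9e-05), the high-affinity IL-2 receptor chain. The 3 that fell were Il1r1 (-1.40), the IL-1 receptor, Il23r (-1.22) and Il18r1 (-0.45). Il23r stood at 35.0, 31.6 and 29.7 CPM in tdTomato+GFP+ replicates, against 76.5, 66.6 and 72.3 CPM in tdTomato-GFP- replicates, so this chain of the IL-23 receptor was lower in all 3 tdTomato+GFP+ replicates.

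Of 14 tested genes listed as Th17 transcription factors 1 rose, Vdr (2.91, edgeR adjusted p = 5.96e-07), the vitamin D receptor. Vdr stood at 65.6, 56.0 and 52.6 CPM in tdTomato+GFP+ replicates, against 6.31, 11.9 and 4.95 CPM in tdTomato-GFP- replicates. Among the 4 that fell were Batf (-0.49) and Hif1a (-0.35). Of 14 tested genes listed as restraining Il17a, Foxp3 (1.82) and Ikzf3 (0.46) rose, and Tbx21 (-1.16), Tcf7 (-0.81), Klf2 (-0.42) and Foxo1 (-0.36) fell. The median log2 fold change was -0.09 over the transcription factors and -0.25 over the restraining factors.

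Among 13 other cytokine and chemokine genes Ccl20 rose (2.12) and 5 fell, namely Il22 (-3.53), Csf2 (-3.23), which encodes GM-CSF, Ifng (-2.93), Tnf (-1.24) and Furin (-0.59), a protease. Il22 stood at 32.8, 72.8 and 79.4 CPM in tdTomato+GFP+ replicates, against 797, 466 and 851 CPM in tdTomato-GFP- replicates, lower in all 3 tdTomato+GFP+ replicates. Of 11 tested Th17 surface and effector genes 1 rose, Igfbp7 (3.37), and 4 fell, Cxcr6, Tmem176a, Tmem176b and Il23r. Of 10 tested factors that act on Il17a mRNA 0 rose and 2 fell, Arid5a (-1.22), known to stabilise cytokine mRNA, and Zc3h12a (-0.42), the gene of the RNase Regnase-1. Of 4 tested IL-17 receptor genes 0 rose and 2 fell, Il17re (-1.89) and Il17ra (-0.48). Of 3 tested neighbours of the locus on chromosome 1, 0 rose and Mcm3, a replication factor, fell (-0.53), while Il17b, Il17c, Il17d and Il25 are not among the listed genes. Outside the Th17-like class Vdr rose as well (3.32, adjusted p = 0.000129), as did Ccl20 (3.37), Irf4 (0.49), Bhlhe40 (0.58), Maf (0.30) and Mcm3 (0.84). Outside the class, where 3.81% of all tested genes were higher and 5.52% lower, 5 of 15 Th17 transcription factors rose and 1 fell, 1 of 15 restraining factors rose and 9 fell, and 3 of 11 surface and effector genes rose and 0 fell.

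Clones, defined as cells of a replicate with the same alpha and beta junctions, were used to ask how the transcripts relate to expansion. Over all tdTomato+GFP+ cells, Il17a stood at 14340.3, 12499 and 10942 CPM in clones of at least 5 cells, against 5198, 5790 and 6189 CPM in cells whose clone had 1 cell. The groups did not overlap, but the blocked fit gave 1.07 (SE 0.18, adjusted p = 0.164) and passed at 1.07 with no block (adjusted p = 0.0121) and at 0.90 without replicate 1. Il17f stood at 1955, 1356 and 1289.6 CPM, against 1226, 955 and 1024 CPM, and rose by 0.44 (SE 0.06, adjusted p = 2.7e-05, where 8.15% of genes passed), a call lost with no block (0.46, adjusted p = 0.387). The share of Th17-like cells moved with clone size, at 81.1%, 73.2% and 68.9% in large clones, against 33.0%, 36.6% and 39.2% in single cells. In the tdTomato-GFP- gate Il17a stood at 3225, 2753 and 6018 CPM in large clones, against 784, 543 and 626 CPM in single cells (2.49, adjusted p = 0.0866), and Il17f at 349, 346 and 816 CPM, against 113, 77.5 and 91.3 CPM (2.23, adjusted p = 0.134), where 13.4% of genes passed. Without replicate 3 both passed, at 2.16 and 1.85, and with no block Il17a did, at 2.57 (adjusted p = 0.0272).

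Within the Th17-like class of the tdTomato+GFP+ gate the transcripts went in opposite directions with clone size. Il17f stood at 2389, 1836 and 1934 CPM in large clones, against 3939, 2344 and 2547 CPM in single cells. It was lower in large clones of each replicate and fell by 0.49 on the log2 scale (SE 0.05, adjusted p = 1.45e-08, where 1.08% of genes passed, 0.797% as lower). Il17a stood at 17776, 17098 and 16694 CPM in large clones, against 14508, 15105 and 16235 CPM in single cells, a rise of 0.15 (SE 0.04, adjusted p = 0.0297). Il17f per 100 Il17a UMIs was 13.4, 10.7 and 11.6 in large clones, against 27.1, 15.5 and 15.7 in single cells. The single cells number 35, 162 and 140, the test shares its spread over genes, and with no block the fall was -0.51 with an adjusted p of 0.872. With equal numbers per cluster, chosen after the data were seen, Il17f gave -0.58 (adjusted p = 0.109) and Il17a -0.02, and without the largest clone of each replicate Il17f gave -0.58 (adjusted p = 3.58e-13). The Il17a rise was also lost without replicate 1 (0.09, adjusted p = 0.657) or replicate 2 (0.15, adjusted p = 0.766).

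In the tdTomato-GFP- gate neither transcript passed in the same class. Il17f stood at 1403, 1630.1 and 1988 CPM in large clones, against 1582, 1299 and 1456 CPM in single cells, lower in replicate 1 and higher in replicates 2 and 3 (0.16, SE 0.10, adjusted p = 0.950). Il17a was higher in large clones of each replicate but gave 0.22 (SE 0.07, adjusted p = 0.333), where 0.136% of genes passed. The difference of the clone size effect between the gates was not tested.

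**Figure D4:**
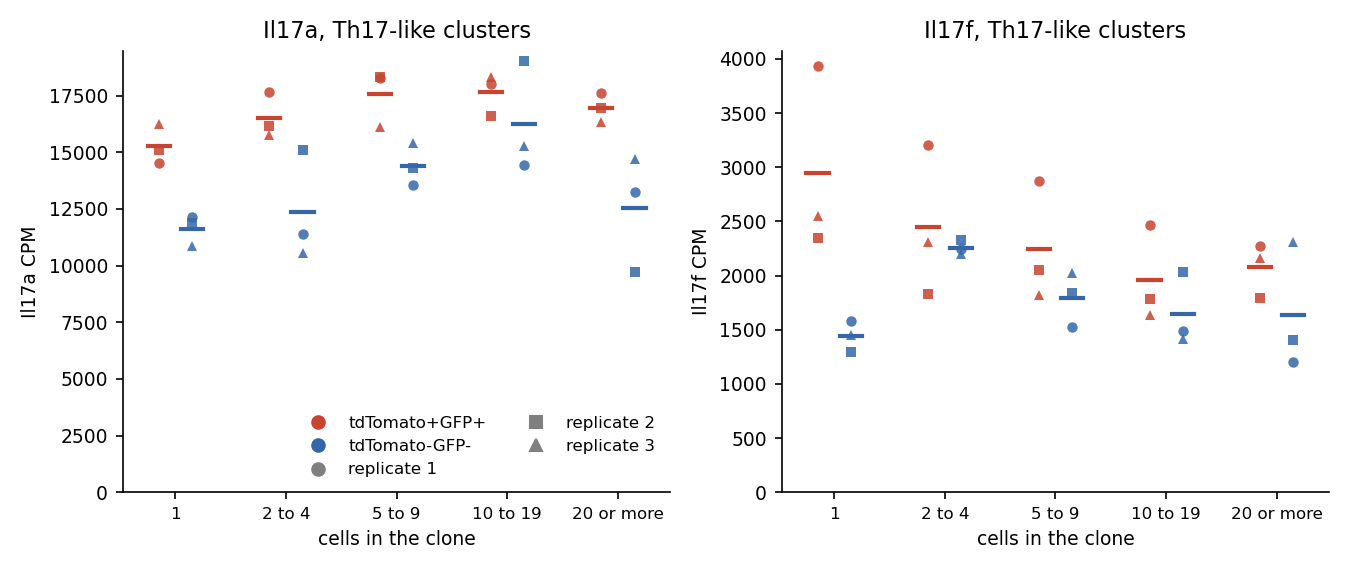
Il17a (left) and Il17f (right) CPM in Th17-like clusters by the number of cells in the clone. Points are hashed replicates, bars are means of 3 replicates, and tdTomato+GFP+ stands left of tdTomato-GFP-. Mean Il17f in tdTomato+GFP+ cells is 2943 CPM in clones of 1 cell and 2077 CPM in clones of 20 or more.

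Single clones of at least 10 cells showed how far the ratio can range. There were 24, 65 and 29 such clones in tdTomato+GFP+ replicates, of which 24, 52 and 21 had an Il17a UMI in at least 80% of their cells, and 44, 20 and 12 in tdTomato-GFP- replicates, of which 4, 2 and 3 did. Of the tdTomato-GFP- clones 10, 5 and 4 had 0 Il17a UMIs, against 0, 0 and 0 of the tdTomato+GFP+ clones. Among clones with at least 200 Il17a UMIs, a tdTomato+GFP+ clone of 10 cells had 104 Il17f and 332 Il17a UMIs, or 31.3 per 100 (95% exact counting interval 24.9 to 39.2). Another, of 19 cells, had 0 Il17f and 275 Il17a UMIs, an interval of 0 to 1.35 per 100. In the tdTomato-GFP- gate the range ran from 0 of 243 Il17a UMIs (0 to 1.53 per 100) to 24.0 per 100 (17.9 to 31.9). These clones were chosen as extremes, and the intervals cover counting error only.

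**Figure D5:**
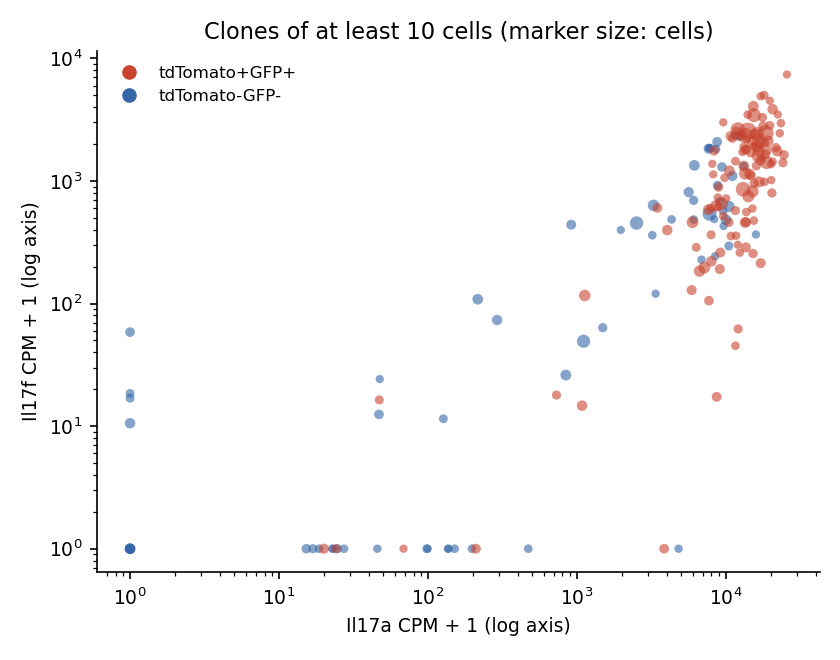
Il17f CPM plus 1 against Il17a CPM plus 1, both on log axes, for each clone of at least 10 cells, with the marker area growing with the number of cells. Median Il17a per clone is 14229, 13446 and 12019 CPM in tdTomato+GFP+ replicates, against 343, 208 and 8218 CPM in tdTomato-GFP- replicates, whose clones spread over the whole range.

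Some receptors occurred in both gates of a replicate number, in 19, 23 and 33 clonotypes. In these, Il17a over all cells stood at 11216, 12542 and 4418 CPM in the tdTomato+GFP+ and at 5469, 5057 and 5133 CPM in the tdTomato-GFP- cells, so replicate 3 went the other way. In their Th17-like cells Il17a was higher in the tdTomato+GFP+ cells of each replicate, at 17664, 17632 and 15836 CPM, against 14337, 15765 and 12156 CPM. Il17f there was 1267, 2632 and 1390.0 CPM in tdTomato+GFP+ cells, against 956, 2559 and 1875 CPM in their tdTomato-GFP- relatives, with replicate 3 again the exception. With 3 pairs the values are a description.

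Across 27 points of cluster and gate, Il17a and Il17f had a Pearson correlation of 0.98 on log2(CPM + 10), the highest for either gene among 7971 genes. The points share the lanes and clusters, so no p is given. After Il17f, the genes most like Il17a were Ablim3 (0.95), Cpe (0.95), Ppp1r14c (0.94), Ccl20 (0.91) and Tmem176b (0.91). After Il17a, those most like Il17f were Ablim3 (0.97), Ppp1r14c (0.94), Cpe (0.93), Blk (0.92) and Ap1s2 (0.92). Ablim3, Ppp1r14c, Cpe, Vax2, Ccr1 and Ckb were among the 10 most alike for both members. The most opposite patterns were those of Socs3 for Il17a (-0.90), a suppressor of cytokine signalling, and of Cd27 for Il17f (-0.94), a costimulatory receptor.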

How the data were processed

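The deposited table holds whole UMI counts per cell and gene, made by the authors with Cell Ranger on mm10 (GRCm38) and Scanpy 1.7.2, per the submitters' processing notes. Per the labels' protocols, the chemistry was a 10x 3′ or 5′ kit, without saying which for this table. The cell table gives the authors' replicate from hashtags, cluster number and receptor sequences. The 3 hashtag columns (43.8% of UMIs) were left out, as were 4721 cells without a replicate; 216 assigned cells have no cluster and enter only sums over all cells. Doublets were not called here. There were 0 sample columns without a use.

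Sums of counts over the cells of each hashed replicate entered edgeR 4.0.16 (R 4.3.3) with TMM scaling, filterByExpr (minimum count 10), robust quasi-likelihood, two-sided, Benjamini-Hochberg over all tested genes, threshold 0.05. CPM and every percent are computed here from the deposited counts. Gate fits have no block. Clone, detection and class by gate fits have the hashed replicate as a block. Deviations from the gate means correlated at 0.287, 0.192 and 0.223 between gates for replicates with the same number, and from -0.251 to 0.0543 for different numbers. Across gates, the same numbers shared 19, 23 and 33 clonotypes and different numbers from 0 to 3, while different numbers within a gate shared up to 21. The numbers were therefore taken to pair the gates. The main gate fits and permutation tests do not use this pairing and treat all replicates as independent. Some single-cluster calls changed with the block, as given above. Nothing in the labels states which animals the replicates came from. Cells were thinned to 2000 UMIs where shares are compared at equal depth, and a cluster entered its own fit with at least 20 cells per replicate. A marker counts as raised in a cluster at 20 CPM or more if its CPM plus 20 is also at least 1.5 times a reference. That reference is its median CPM over the other clusters plus 20. Exact permutation tests and exact intervals (95%) used scipy 1.17.1, and intervals cover counting error only. The fit was tested on simulated data with known changes.

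The members, lists and clusters were chosen with earlier results of these data known. Besides the list genes, named genes are the 10 largest changes in each direction among those past the threshold, at 10 CPM or more on average and changed the same way in every replicate, and the 10 genes most like each member across clusters. Alternatives were DESeq2 1.42.0, RLE factors, no filter, thinning, 1 cell per clonotype, equal cells per cluster, other clone definitions, the replicate block and each replicate left out. A gene of the lists enters the counts over lists but is not reported here.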

Additional observations from a re-analysis of the deposited data

Results flagged for a closer look

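The gate effect on both genes differed between the Th17-like clusters and the others by a test of the difference itself. Since the clustering used these genes too, the classes were set partly by the levels compared, and the difference is a description. On the log2 scale the effect in Th17-like clusters minus that in the other clusters was -2.24 for Il17a (SE 0.35, edgeR adjusted p = 0.0388) and -2.06 for Il17f (SE 0.10, edgeR adjusted p = 1.71e-08). Il17a lost its call without any 1 of the 6 replicates, while Il17f kept it. The share of cells with at least 1 Il17a UMI in naive-like cluster 9, 22.6% of tdTomato+GFP+ and 2.28% of tdTomato-GFP- cells, also differed between the lanes, and its part in the difference was not tested. Nor was the part of the mix of clusters outside the Th17-like class, which differed between the gates.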

How the results depend on the processing

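Of 172 alternative values for the members outside single clusters, 144 kept direction and side of the threshold, 21 lost the call, 5 gained it and 2 changed sign. In single clusters the counts were 150 of 168 kept, 8 lost and 10 gained. With equal cells per cluster the gate effect over all cells was 0.29 for Il17a and 0.50 for Il17f, Il17f in Il17a-positive cells was 2.81, and the clone size effects in Th17-like clusters were -0.017 (Il17a) and -0.58 (Il17f) in tdTomato+GFP+ cells and -0.10 (Il17f) in tdTomato-GFP- cells. With 1 cell per clonotype Il17a outside the Th17-like clusters gave 2.55. With large clones from 10 cells Il17a in Th17-like tdTomato+GFP+ cells gave 0.14. With no replicate block the clone size effects were 1.07 (Il17a) and 0.46 (Il17f) over tdTomato+GFP+ cells, 0.15 and -0.51 in their Th17-like clusters, and 2.57 (Il17a) over tdTomato-GFP- cells. The cause of these shifts was not tested, except that equal cells per cluster and 1 cell per clonotype leave fewer cells.

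With 1 replicate left out, Il17a outside the Th17-like clusters ranged from 2.32 to 2.85, its class difference from -2.48 to -2.03, and its clone size effect from 0.90 to 1.22 over tdTomato+GFP+ cells, from 0.089 to 0.22 in their Th17-like clusters and from 2.16 to 2.74 over tdTomato-GFP- cells. For Il17f the clone size effect over tdTomato-GFP- cells ranged from 1.85 to 2.59. In Th17-like clusters the gate difference ranged from -0.71 to 0.35 for Il17f UMIs per positive cell and from -1.03 to 0.53 for Il17f per 100 Il17a UMIs.

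With the replicate number as a block, a pairing taken from the data, the gate effect on Il17a and Il17f was 2.63 and 2.51 over all cells, 0.34 and 0.31 in Th17-like clusters, and 2.60 and 2.40 outside them. No call on the members changed in these 3 fits.

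The genes that passed numbered 3153 over all cells (245 with equal cells per cluster, 4161 with the block), 1129 in Th17-like clusters (272 with 1 cell per clonotype, 1740 with the block) and 1040 outside (332 without tdTomato+GFP+ replicate 2, 2172 with the block). They numbered 801 for the class difference (357 with no block), 822 for clone size over tdTomato+GFP+ cells (246 without replicate 2), 98 in their Th17-like clusters (1 with no block), 8 in Th17-like clusters of tdTomato-GFP- cells (1 with equal cells per cluster, 24 without replicate 2) and 118 between Il17a-positive and Il17a-negative cells (14 with equal cells per cluster).

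Each gate is 1 lane, and 3 replicates per gate cannot give an exact p below 0.1. The clusters were made from these genes too. Shares with at least 1 UMI may include free RNA, which was not measured. Naive-like cluster 9 had an Il17a UMI in 22.6% of tdTomato+GFP+ cells and 2.28% of tdTomato-GFP- cells.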
